A study of Mus musculus with 12 samples.

Results

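Stab2, Lyve1, Oit3, Kdr, Tek, Eng, Pecam1, Cdh5, Emcn and Bmp2 mark the endothelium of the liver sinusoids and of blood vessels at large, and were followed as a readout of cell mixture in MYC-driven liver tumors and in liver cancer xenografts of mice fed with or without tryptophan (Trp). They were taken by name from the gene counts of 12 poly(A) RNA libraries, and all 10 were found among the 24062 gene symbols of every library. In the MYC-ON livers, male FVB mice carried LAP-tTA and TRE-MYC, in which the hepatocyte LAP promoter drives the doxycycline-repressed activator tTA, and MYC was switched on from birth by withdrawing doxycycline. Livers 101, 102 and 103 came from mice on the control (complete) diet and livers 105, 107 and 108 from mice on the No-Trp diet, each diet lasting 21 days. The labels give an age of 45 days for MYC males in another comparison of the study and no age for each of these livers. In the xenografts, HCC53N cells, which the labels describe as primary mouse liver tumor cells generated from Myc with p53 knocked out and mutant NRAS overexpressed in hepatocytes, grew under the flank skin of female NOD SCID mice (spelled NOD-SKID in the labels, which also give FVB MYC ON as the cancer cell genotype). Female is the sex that the paper's methods name for xenograft hosts, and they add that experiments were repeated in males. Xenografts 40, 41 and 43 were on the control diet and xenografts 35, 36 and 37 on the No-Trp diet, with no host age stated. The xenografts all stem from 1 cell line, and since tumor cells and host are both mouse, their reads cannot be separated by species. Tissue, host strain, sex and site differ together between the models and cannot be told apart.

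Liver sinusoids are lined by fenestrated endothelial cells that clear waste molecules from blood through scavenger receptors, present on few other vessels. Stab2 (stabilin-2) and Lyve1 bind hyaluronan, and Lyve1 is also found on lymphatic endothelium and on some tissue macrophages. Oit3 is a secreted protein enriched in liver sinusoidal cells. Kdr (VEGF receptor 2), Tek (the angiopoietin receptor Tie2) and Eng (endoglin, a co-receptor for BMP9 and BMP10) carry growth signals in endothelium generally. Pecam1 and Cdh5 (VE-cadherin) hold endothelial cells together at their junctions, while Emcn (endomucin) is a surface sialomucin of veins and capillaries. Bmp2 is a ligand that liver endothelium supplies to hepatocytes, where it helps to set hepcidin, the hormone of iron balance, but it is also made by many other cells, tumor cells included.

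On mm10 (GRCm38), the members lie on 8 chromosomes. Stab2 spans chr10:86841198-87008025 and Oit3 chr10:59422958-59441778, both on the minus strand, Lyve1 chr7:110850607-110863239 (minus), Kdr chr5:75932827-75978458 (minus) and Tek chr4:94739289-94874976 (plus). Eng spans chr2:32646595-32682669 (plus), Pecam1 chr11:106654217-106750628 (minus), Cdh5 chr8:104101625-104144511 (plus), Emcn chr3:137341067-137432185 (plus) and Bmp2 chr2:133552159-133562885 (plus). Exons of Eng overlap those of Fpgs on the opposite strand and exons of Stab2 those of the antisense gene Gm16268, and the strand setting of the read counting is not given in the sources used here, so counts of Eng and Stab2 are uncertain to that extent. RefSeq promoter sequences (GRCm38.p6) were at hand for 5 of the 10 members. ETS factors, which act in all endothelium, bind a GGAA core, and the motif AGGAAG (either strand, in capitals in the sequences below) was searched in the 250 bases before the RefSeq start. It occurs 2 times in Eng and Emcn, 1 time in Stab2 and 0 times in Tek and Kdr, and in 29.5% of 32851 promoters of that length. The RefSeq start of Stab2 lies inside its GENCODE span given above, and so does its match, which is therefore not upstream of the GENCODE start. The 3 growth factor receptors, each of which had its higher values on the No-Trp diet in livers, are shown 5′ to 3′ on the strand of the gene: Eng at chr2:32646345-32646594, Tek at chr4:94739039-94739288 and Kdr at chr5:75978456-75978705.
Eng: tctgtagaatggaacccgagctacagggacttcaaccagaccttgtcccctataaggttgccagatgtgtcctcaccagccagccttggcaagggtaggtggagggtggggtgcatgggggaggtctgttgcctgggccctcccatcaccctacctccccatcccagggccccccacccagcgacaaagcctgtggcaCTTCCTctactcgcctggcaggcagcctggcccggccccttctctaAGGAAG
Tek: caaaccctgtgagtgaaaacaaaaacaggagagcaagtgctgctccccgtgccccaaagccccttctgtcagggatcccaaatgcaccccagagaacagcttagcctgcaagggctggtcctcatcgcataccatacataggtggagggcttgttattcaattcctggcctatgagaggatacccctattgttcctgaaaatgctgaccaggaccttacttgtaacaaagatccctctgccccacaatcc
Kdr: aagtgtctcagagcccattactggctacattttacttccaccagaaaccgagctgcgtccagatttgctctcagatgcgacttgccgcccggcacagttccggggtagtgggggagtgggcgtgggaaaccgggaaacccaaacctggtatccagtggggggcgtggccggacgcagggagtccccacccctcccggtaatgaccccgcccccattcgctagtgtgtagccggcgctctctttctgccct
These are letter matches only. Eng holds the motif, and Tek and Kdr do not within this window, though both of them hold the shorter GGAA core in either orientation.

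The libraries held 14660963 to 26085349 reads on genes, and replicates of a group differed by more than counting error in every pair. Rn45s, the ribosomal RNA precursor, took 12.1% of counted reads in control liver 101 and 0.261 to 2.22% in the other 11 libraries. Reads left uncounted were 36.1% in liver 101, 24.7 to 28.6% in the other livers, 28.5 to 39.4% in control xenografts and 26.4 to 26.8% in No-Trp xenografts, so that in the xenografts this share differed between diets without overlap. Its part in the diet values was not tested. The labelled tissue was checked against its markers. Summed CPM (counts per 1000000 reads, scaled by the trimmed mean of M-values, TMM, here and throughout) of 13 hepatocyte genes were 11672 to 42935 in control livers, 59898 to 141625 in No-Trp livers, 536 to 1803 in control xenografts and 705 to 1179 in No-Trp xenografts. Every xenograft lay below every liver for these genes. Other lists lay the other way. Summed CPM of 5 cholangiocyte genes were 19.8 to 56.0 in control livers and 28.5 to 49.7 in No-Trp livers. They were 342 to 841 in control xenografts and 642 to 763 in No-Trp xenografts. The sum of 8 fibroblast genes was also higher in every xenograft than in any liver. A mark of resubmission stands in the file names of livers 101 and 108 and of control xenografts 41 and 43, and among the livers the mark is split evenly between diets whereas among the xenografts only control animals carry it. Control xenograft 40 has a file named in a different pattern.

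Every member was detected in all 12 libraries, but the order of levels differed between models. Per kilobase of exon, the highest mean CPM in control livers were those of Eng (10.5 CPM per kb), Cdh5 (8.55) and Lyve1 (4.85), and the lowest were those of Tek (1.34) and Emcn (0.800). In No-Trp livers Eng (20.7), Oit3 (10.1) and Bmp2 (9.98) stood highest and Emcn (0.451) lowest, all in CPM per kb. In control xenografts Bmp2 led with 21.2 CPM per kb and Stab2 came last with 0.0906. In No-Trp xenografts Lyve1 (18.6) stood above Bmp2 (14.7) and Stab2 again came last with 0.180 CPM per kb. Neighbours in the order were mostly closer than their spread. In control livers, for example, Lyve1, Pecam1 and Stab2 had means of 4.85, 4.42 and 3.81 CPM per kb (n = 3). Their ranges over the mice were 3.42 to 7.26, 3.03 to 5.34 and 2.45 to 4.85 CPM per kb, which overlap.

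**Figure D1:**
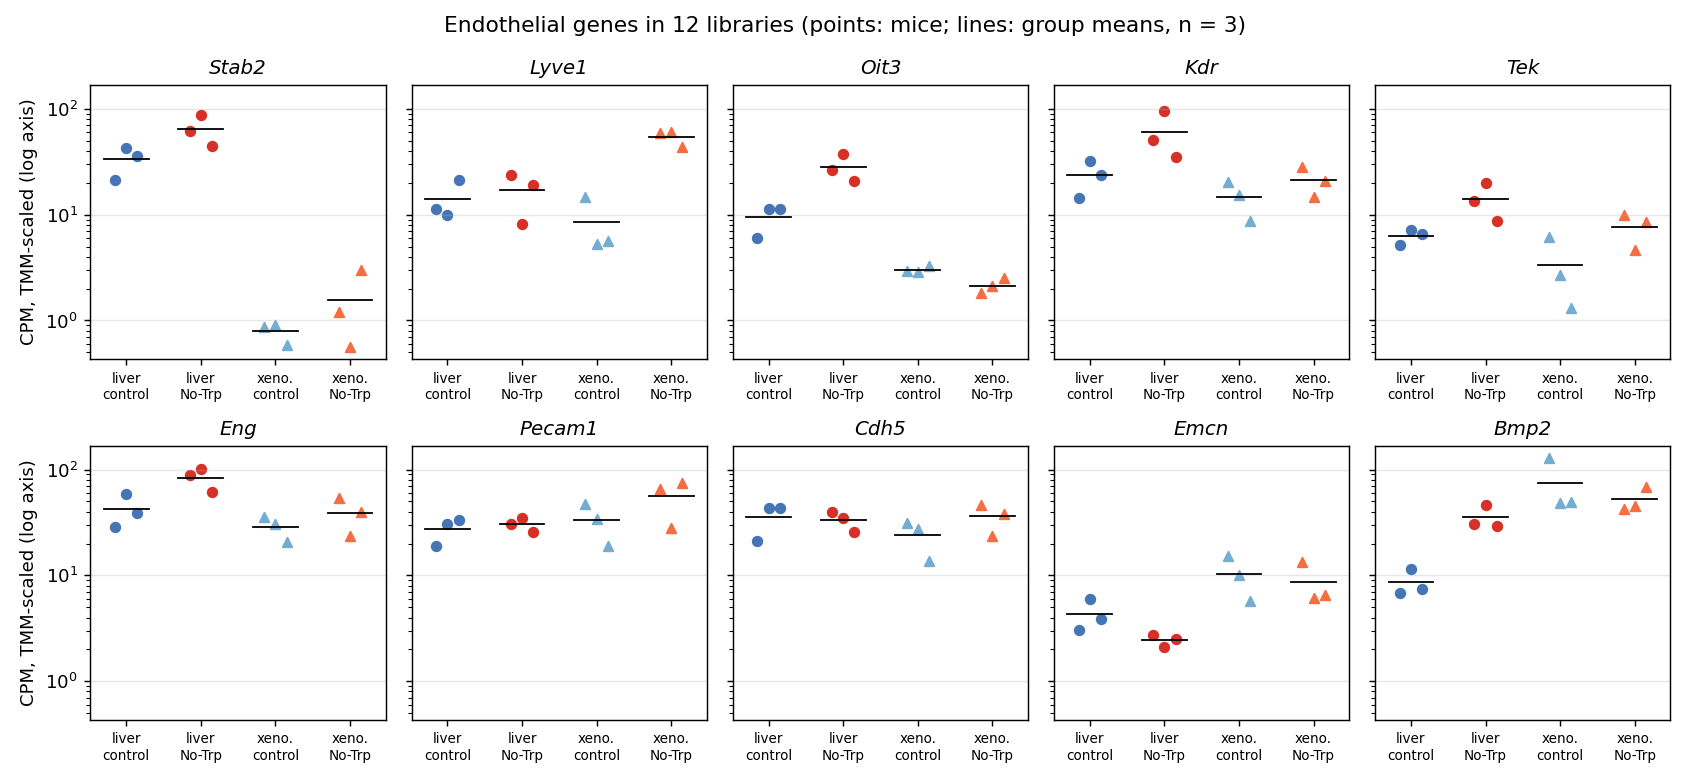
CPM (TMM-scaled, log axis) of the 10 members in each of the 12 libraries, one panel per gene. Points are mice (circles, livers; triangles, xenografts) and lines are group means (n = 3). Stab2 is at least 21.4 CPM in every liver and at most 2.97 CPM in every xenograft, whereas the ranges of Pecam1 and Cdh5 overlap across all 4 groups.

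The first question was how endothelial RNA differed between the diets in MYC-ON livers. Bmp2, Oit3 and Tek rose, the junction genes Pecam1 and Cdh5 were not called, and Emcn had its lower values without Trp. Genes counted as called where the adjusted p did not exceed 0.05 and the log2 fold change reached 1 in either direction, by edgeR's quasi-likelihood test with Benjamini-Hochberg adjustment over 14122 genes. Of the 10 members 3 were called higher and 0 lower, where 9.28% of all genes tested were called higher and 7.27% lower. The median log2 fold change was 0.99 over the members and -0.00 over all genes. In bulk tissue, fewer cells of a type and less RNA per cell cannot be told apart. The paper reports a smaller tumor burden and less MYC transgene RNA in MYC-ON livers on the No-Trp diet. Diet and the share of tumor tissue therefore cannot be told apart in these livers.

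Among the scavenger and sinusoidal genes, Oit3 moved most. Oit3 read 6.08, 11.3 and 11.3 CPM in control livers 101, 102 and 103 and 26.6, 37.2 and 20.8 CPM in No-Trp livers 105, 107 and 108. The groups did not overlap, and the log2 fold change was 1.58 (SE 0.33, adjusted p = 0.0233). Stab2 read 21.4, 42.5 and 36.2 CPM on the control diet and 61.7, 87.7 and 44.3 CPM on the No-Trp diet, in the same library order. Its groups did not overlap either, though only by the narrow gap between liver 102 and liver 108, and the log2 fold change of 0.97 (SE 0.33, adjusted p = 0.0679) did not pass. Lyve1 read 11.3, 9.97 and 21.2 CPM on the control diet and 23.7, 8.24 and 19.2 CPM on the No-Trp diet. Its groups overlapped widely, liver 107 being the lowest of the 6, and its log2 fold change was 0.28 (SE 0.45, adjusted p = 0.670).

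The 3 growth factor receptors had their higher values on the No-Trp diet, and Tek was called. Tek read 5.21, 7.15 and 6.55 CPM in control livers and 13.6, 20.1 and 8.70 CPM in No-Trp livers, without overlap, a log2 fold change of 1.18 (SE 0.34, adjusted p = 0.0434). Eng read 28.9, 59.3 and 39.1 CPM on the control diet and 89.1, 100.5 and 61.6 CPM on the No-Trp diet. Eng passed the adjusted p but not the fold, with a log2 fold change of 1.00 that lies under the threshold by less than its last printed digit (SE 0.30, adjusted p = 0.0477). Kdr read 14.3, 32.1 and 24.0 CPM on the control diet and 50.9, 96.3 and 34.7 CPM on the No-Trp diet, with a log2 fold change of 1.39 (SE 0.44, adjusted p = 0.0555), and did not pass. Liver 107 was the highest of the 6 for all 3 receptors, and liver 101, the library with the most Rn45s, was the lowest. The low values of liver 101 were not particular to the receptors. It was also the lowest for Stab2, Oit3, Pecam1, Cdh5 and Bmp2, though not for Lyve1 or Emcn.

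The junction and surface genes did not follow the receptors. Pecam1 read 18.9, 30.4 and 33.3 CPM on the control diet and 30.9, 35.0 and 25.5 CPM on the No-Trp diet, an overlap that leaves a log2 fold change of 0.16 (SE 0.25, adjusted p = 0.654). Cdh5 read 21.0, 43.2 and 43.6 CPM and 39.6, 34.9 and 25.6 CPM, with a log2 fold change of -0.09 (SE 0.31, adjusted p = 0.847). Emcn, by contrast, read 3.04, 6.03 and 3.91 CPM on the control diet and 2.74, 2.09 and 2.49 CPM on the No-Trp diet. Emcn's values were lower in every No-Trp liver than in any control liver, but the log2 fold change of -0.80 (SE 0.34, adjusted p = 0.121) did not pass.

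Bmp2 had the largest fold change of the 10. It read 6.85, 11.5 and 7.39 CPM in control livers and 30.4, 46.7 and 29.4 CPM in No-Trp livers, so that its lowest No-Trp value was well above its highest control value. The log2 fold change was 2.07 (SE 0.29, adjusted p = 0.0142). Counting groups that do not overlap, 6 members were higher and 1 lower without Trp, against 23.6% and 25.0% of all genes tested.

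These counts moved with single livers. Leaving out control liver 103 left 8 called genes in all and 0 members, whereas leaving out control liver 102 gave 3207 called genes and 5 members higher. Without liver 101 or liver 105, 1 member stayed called higher, without liver 107 there were 2, and without liver 108 there were 5. Bmp2 was called in 5 of these 6 fits, Oit3 in 3 and Tek in 1. With the mark of resubmission as a covariate 5 members were called higher, Eng joining with 1.01 (adjusted p = 0.0213) and Kdr with 1.37 (adjusted p = 0.0239).

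**Figure D2:**
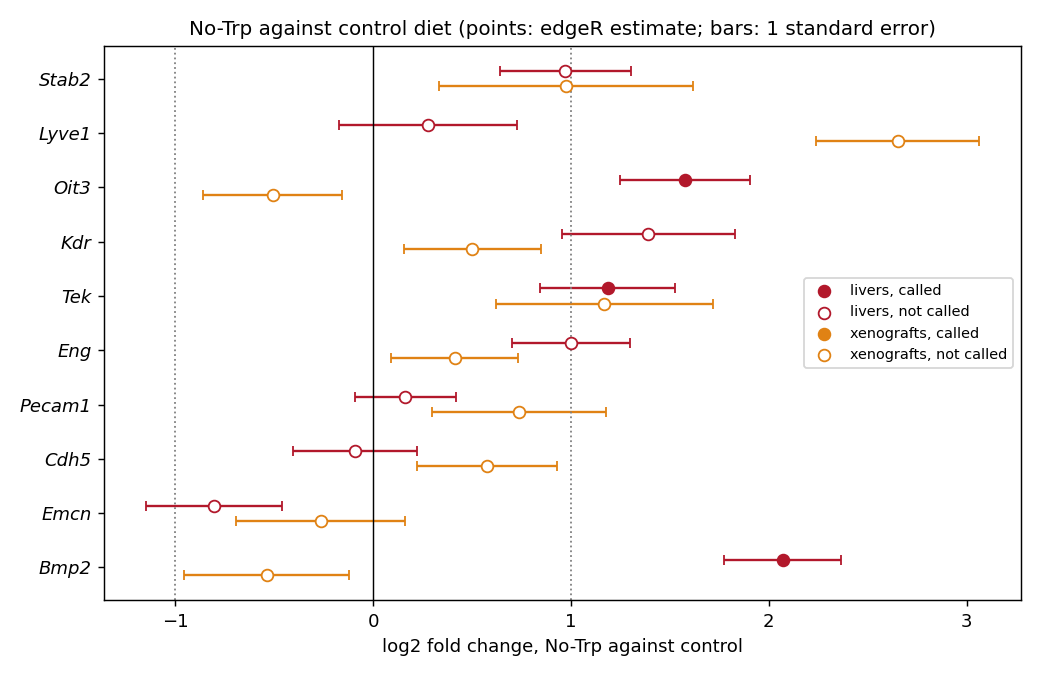
Log2 fold change on the No-Trp against the control diet for each member, livers in red and xenografts in orange. Points are edgeR estimates, bars 1 standard error, filled points called and dotted lines the fold threshold. Bmp2, Oit3 and Tek are called in livers and no member is called in xenografts, where Lyve1 lies farthest to the right.

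Further endothelial genes, listed with earlier results of these data known, were grouped in the same way. Of 14 further sinusoidal genes tested, 11 were called higher and 0 lower, with a median log2 fold change of 1.54. Over all genes tested in livers 9.28% were called higher and 7.27% lower. Fcgr2b, an Fc receptor that clears immune complexes, rose by 1.62 (adjusted p = 0.0198), the orphan receptor Gpr182 by 1.37 (0.0203), Flt4 (VEGF receptor 3) by 1.47 (0.0246) and the Wnt potentiator Rspo3 by 2.44 (0.0261), with adjusted p in parentheses. Of 27 further pan-endothelial genes 4 were called higher and 0 lower, with a median of 0.48. These were Calcrl, a receptor for adrenomedullin, at 1.44 (0.0173), the lipase carrier Gpihbp1 at 1.43 (0.0182), the phosphatase Ptprb, which acts on Tek, at 1.88 (0.0201) and Nos3, endothelial nitric oxide synthase, at 1.36 (0.0254).

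Genes of sprouting vessels were called in the other direction. Of 10 angiogenic endothelial genes 0 were called higher and 5 lower, with a median log2 fold change of -1.24, where 7.27% of all genes tested were called lower. The basement membrane genes Nid2 (-1.50, adjusted p = 0.0196) and Col4a1 (-1.05, 0.0224), the adhesion molecule Mcam (-1.27, 0.0262), the netrin receptor Unc5b (-1.20, 0.0342) and the tip cell gene Esm1, named after its values were seen (-2.14, 0.0449) fell. Of 13 genes of large vessels and continuous endothelium, the arterial gap junction gene Gja5 (-1.98, 0.0296) and the semaphorin Sema3g (-1.71, 0.0389) were called lower and 0 higher. Basement membrane genes are also made by pericytes and fibroblasts.

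In the VEGF and angiopoietin pathway 3 of 13 genes were called higher and 1 lower in the livers. Vegfa, the ligand of Kdr, read 78.5, 118 and 68.3 CPM on the control diet and 191, 311 and 170.4 CPM on the No-Trp diet, a rise of 1.37 (adjusted p = 0.0253), together with Ptprb and Flt4. Vegfb fell by 1.33 on the log2 scale (adjusted p = 0.0211). In the BMP and endoglin pathway 5 of 25 further genes were called higher and 0 lower. Hepcidin genes Hamp (2.89, 0.0127) and Hamp2 (3.43, 0.0211), Gdf2, which encodes the endoglin ligand BMP9 (1.89, 0.0326), and Tfr2 (1.66, 0.0326) rose on the log2 scale. Bmp6, the other main hepcidin inducer of liver endothelium and also named after its values were seen, had 1.61 (adjusted p = 0.0588) and did not pass.

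Among 16 endothelial transcription factors, Maf rose (1.03, adjusted p = 0.0361) and Lyl1 (-1.67, 0.0213) and Tal1 (-2.94, 0.0340) fell. Lyl1 and Tal1 also act in blood precursors, and 6 of 8 erythroid genes fell in the same livers, their summed CPM being 70.6 to 669.9 in control and 20.6 to 33.0 in No-Trp livers. Beside the sinusoidal genes, 6 of 13 hepatocyte genes were called higher and 0 lower. The summed CPM of 12 Kupffer cell and macrophage genes overlapped (655 to 1028 and 519 to 1111), with Cd163 alone called (1.38, adjusted p = 0.0331). Summed stellate cell and pericyte genes were 79.6 to 157 CPM and 161 to 288 CPM, with 3 genes called higher and 1 lower of 11. Adipocyte genes summed to 5.02 to 6.65 CPM and 14.4 to 61.0 CPM, with 1 of 2 tested called higher. The part of these cell types, or of the tumor share, in the endothelial values was not tested.

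**Figure D3:**
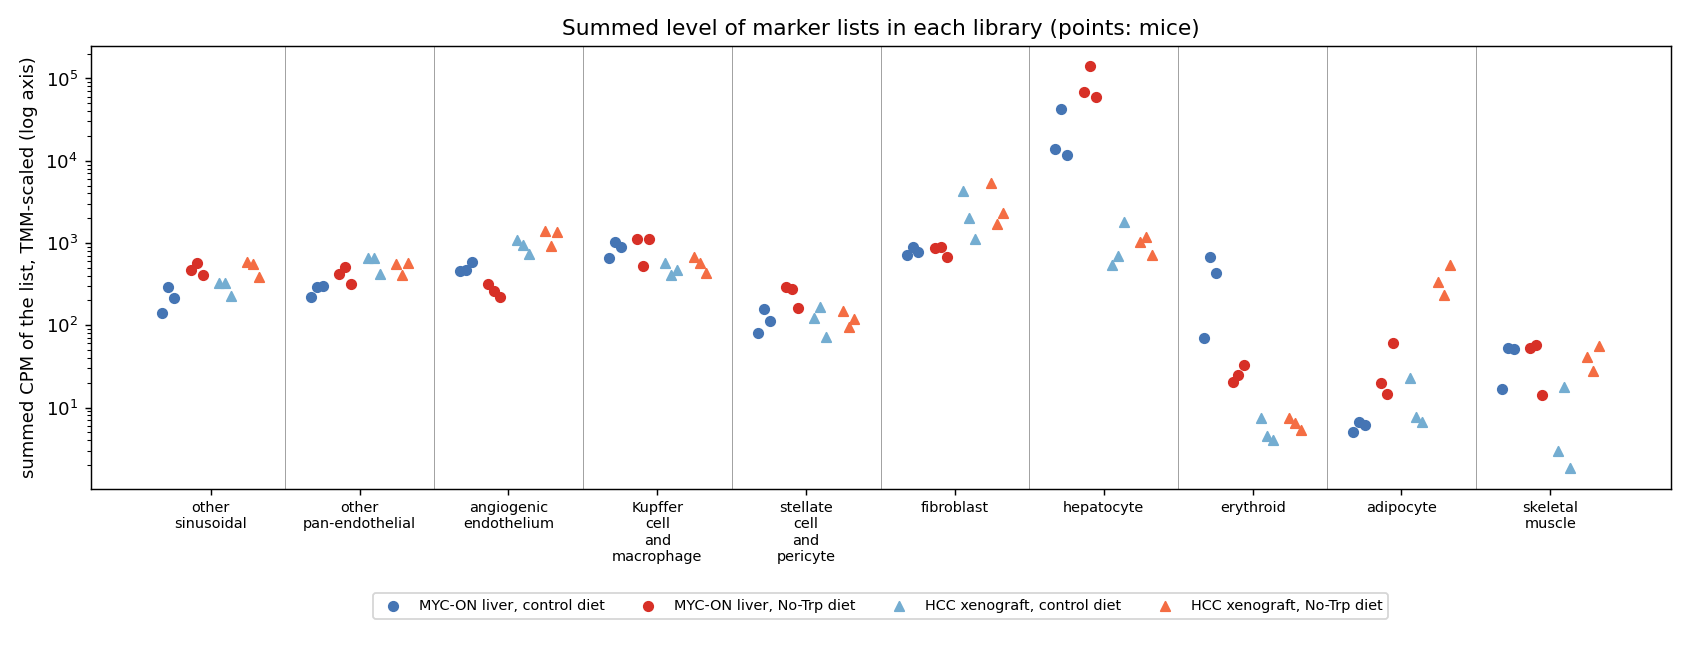
Summed CPM (TMM-scaled, log axis) of marker lists for 10 cell types in each library, with livers as circles and xenografts as triangles, control diet in blue and No-Trp diet in red or orange. The angiogenic sum is lower in every No-Trp liver (220.5 to 317) than in any control liver (459 to 581). The adipocyte sum is higher in every No-Trp library than in any control library of the same model.

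In the xenografts fewer genes were called between diets, and of the members Lyve1 stood apart. Of the 10 members 0 were called in either direction by edgeR, where 0.245% of 14704 genes were called higher and 0.116% lower. At an unadjusted p under 0.05 there was 1 member, and DESeq2 called 1, in both cases Lyve1. Lyve1 read 5.59, 14.7 and 5.30 CPM in control xenografts 40, 41 and 43 and 59.1, 60.4 and 43.8 CPM in No-Trp xenografts 35, 36 and 37. The lowest No-Trp value was thus above the highest control value, yet the log2 fold change of 2.65 (SE 0.41, adjusted p = 0.0506) missed the threshold narrowly. DESeq2 gave an adjusted p of 3.12e-10, and over the other settings edgeR's adjusted p ranged up to 0.157. It was 0.0082 without control xenograft 41.

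Sinusoidal and macrophage genes were looked at beside Lyve1. Mrc1 and Stab1 come from the list of further sinusoidal genes, of which 12 of 13 tested had positive values. Mrc1, a mannose receptor of sinusoidal endothelium and macrophages, read 97.9, 168 and 194 CPM on the control diet and 305, 357 and 199.8 CPM on the No-Trp diet, 0.89 on the log2 scale (adjusted p = 0.201). Stab1, a scavenger receptor of the same cells, read 55.6, 66.0 and 51.8 CPM and 154, 88.8 and 69.8 CPM (0.84, adjusted p = 0.197). Cd163, a receptor of tissue macrophages chosen after its values were seen, read 13.4, 29.0 and 13.3 CPM and 99.9, 115 and 60.3 CPM, a log2 fold change of 2.29 (adjusted p = 0.0551). Mrc1, Stab1 and Cd163 were higher on the No-Trp diet without overlap, as were 10.8% of all genes tested. Of the 12 genes on the macrophage list, which holds Cd163 but not Mrc1 or Stab1, 0 were called. On that list 7 genes had positive values, with a median log2 fold change of 0.41. The complement gene C1qa had -0.27 (adjusted p = 0.553) and Cd5l, a secreted scavenger protein, 0.45 (adjusted p = 0.684). Summed over the list, macrophage genes were 414 to 566 CPM on the control diet and 427 to 668 CPM on the No-Trp diet. Lymphatic genes summed to 14.1 to 18.9 CPM and 20.6 to 31.9 CPM. The part of macrophages or lymphatic vessels in the Lyve1 values was not tested.

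The remaining members gave no call in the xenografts. Oit3 read 3.28, 2.91 and 2.86 CPM on the control diet and 1.81, 2.10 and 2.50 CPM on the No-Trp diet, lower in every No-Trp tumor, with a log2 fold change of -0.51 (SE 0.35, adjusted p = 0.503). Lyve1 and Oit3 were the 2 members whose groups did not overlap, 1 in each direction, against 10.8% of genes higher and 11.8% lower. Stab2 read 0.588, 0.877 and 0.914 CPM and 1.20, 0.567 and 2.97 CPM, from counts of 12 to 70 reads, and its log2 fold change was 0.98 (SE 0.64, adjusted p = 0.480). Without xenograft 37 it was 0.14. Tek read 1.32, 6.14 and 2.68 CPM and 10.01, 4.67 and 8.48 CPM, xenograft 40 being lowest, with 1.17 (SE 0.55, adjusted p = 0.329) on the log2 scale. For Tek the value was 2.53 with the resubmission covariate (adjusted p = 0.213) and 1.94 without control xenograft 41 (adjusted p = 0.163).

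Kdr, Eng, Pecam1 and Cdh5 overlapped between diets in the xenografts, with log2 fold changes of 0.50, 0.41, 0.74 and 0.58 and adjusted p of 0.502, 0.557, 0.449 and 0.457. Control xenograft 40 was the lowest of the 6 for each of these 4. Emcn read 5.69, 15.2 and 9.99 CPM on the control diet and 13.3, 6.17 and 6.53 CPM on the No-Trp diet (-0.26, adjusted p = 0.798). Bmp2 read 49.3, 128 and 47.9 CPM and 42.4, 45.6 and 68.7 CPM, with xenograft 41 far above the rest (-0.54, adjusted p = 0.560). With the mark of resubmission as a covariate the log2 fold changes of Kdr, Eng, Pecam1 and Cdh5 were 1.27, 0.92, 1.56 and 1.40 (adjusted p 0.246, 0.385, 0.303 and 0.213). Leaving out 1 library gave 0.23 to 0.80, 0.12 to 0.67, 0.45 to 1.08 and 0.29 to 0.81 for the same genes, with no call. Both marked xenografts are control animals, so the mark of resubmission and the diet can be separated only through xenograft 40.

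Other endothelial lists showed 0 called genes in the xenografts, among 13 sinusoidal, 27 pan-endothelial, 13 large vessel and 10 angiogenic genes tested. Their median log2 fold changes were 0.75, 0.33, 0.84 and 0.12, against -0.00 over all genes. In the BMP and endoglin pathway the BMP target Id3 fell (-1.07, adjusted p = 0.0450). Adipocyte genes moved beside these, 4 of 6 being called higher and their sum going from 6.62 to 22.5 CPM to 230.4 to 546 CPM. Skeletal muscle genes summed to 1.81 to 17.9 CPM and 27.7 to 56.2 CPM, with 0 of 5 called, and leukocyte genes to 30.6 to 33.7 CPM and 41.4 to 49.0 CPM, with 0 of 3 tested called, both without overlap. The part of fat, muscle or leukocytes in the xenograft values was not tested.

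Whether the diet change differed between models was tested directly, as the xenograft change minus the liver change in 1 fit of all 12 libraries. Bmp2 (-2.58 (SE 0.55, adjusted p = 0.0138)) and Oit3 (-2.06 (SE 0.42, adjusted p = 0.0122)) had a lower and Lyve1 (2.40 (SE 0.66, adjusted p = 0.0322)) a higher change in the xenografts. These are 1 member called higher and 2 lower of 10, where 6.7% and 6.01% of 15472 genes were called. Bmp2 and Oit3 were called in 12 of 12 fits that left out 1 library, Lyve1 in 6 of 12, its call being lost without liver 103 or 107 or without xenograft 35, 36, 40 or 43. For Stab2 (0.01, SE 0.51) and Tek (0.01, SE 0.66) the estimates lay near 0 with wide errors. This test has little power: it recovered 60.5% of simulated differences of 2 on the log2 scale. A difference not called therefore does not show that the models responded alike. The simulation gave every gene the same spread and changed only genes above a minimum mean count. Power for members with few reads, such as Stab2 in xenografts, was not tested.

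Ratios within a library do not depend on scaling between libraries. Cdh5, whose liver diet estimate lay near 0, was taken as the denominator. The liver ratios therefore largely restate the diet changes of the other members and add no separate evidence. The Cdh5 estimate in livers was not steady. Control livers 102 and 103 read above every No-Trp liver for Cdh5 and control liver 101 below them all. Leaving out single livers gave log2 fold changes of -0.37 to 0.070. In xenografts Cdh5 itself had a positive diet estimate, not called, which lowers the No-Trp ratios there relative to control. The log2 ratio of Stab2 to Cdh5 was -0.09 ± 0.16 in control and 0.92 ± 0.36 in No-Trp livers (mean ± SD, n = 3), without overlap, and -4.86 ± 0.31 and -4.78 ± 0.95 in control and No-Trp xenografts. Bmp2 over Cdh5 went from -2.03 ± 0.48 to 0.08 ± 0.41 in livers and from 1.57 ± 0.66 to 0.55 ± 0.60 in xenografts. Oit3 over Cdh5 went from -1.89 ± 0.09 to -0.26 ± 0.33 in livers and from -2.91 ± 0.75 to -4.04 ± 0.61 in xenografts.

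For the receptors, the ratio of Eng over Cdh5 was 0.25 ± 0.36 in control livers and 1.32 ± 0.18 in No-Trp livers, and that of Kdr -0.61 ± 0.23 and 0.76 ± 0.62. In the xenografts the same ratios were 0.32 ± 0.24 and 0.08 ± 0.10 for Eng and -0.70 ± 0.11 and -0.77 ± 0.10 for Kdr, and their means moved by less than in livers. Lyve1 over Cdh5 was -1.35 ± 0.67 and -1.08 ± 0.88 in livers but -1.58 ± 0.68 and 0.63 ± 0.64 in xenografts. Emcn over Cdh5 was higher in xenografts (-1.25 ± 0.21 and -2.10 ± 0.40) than in livers (-3.04 ± 0.38 and -3.76 ± 0.36), control diet first in each pair. No test was run on these ratios.

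**Figure D4:**
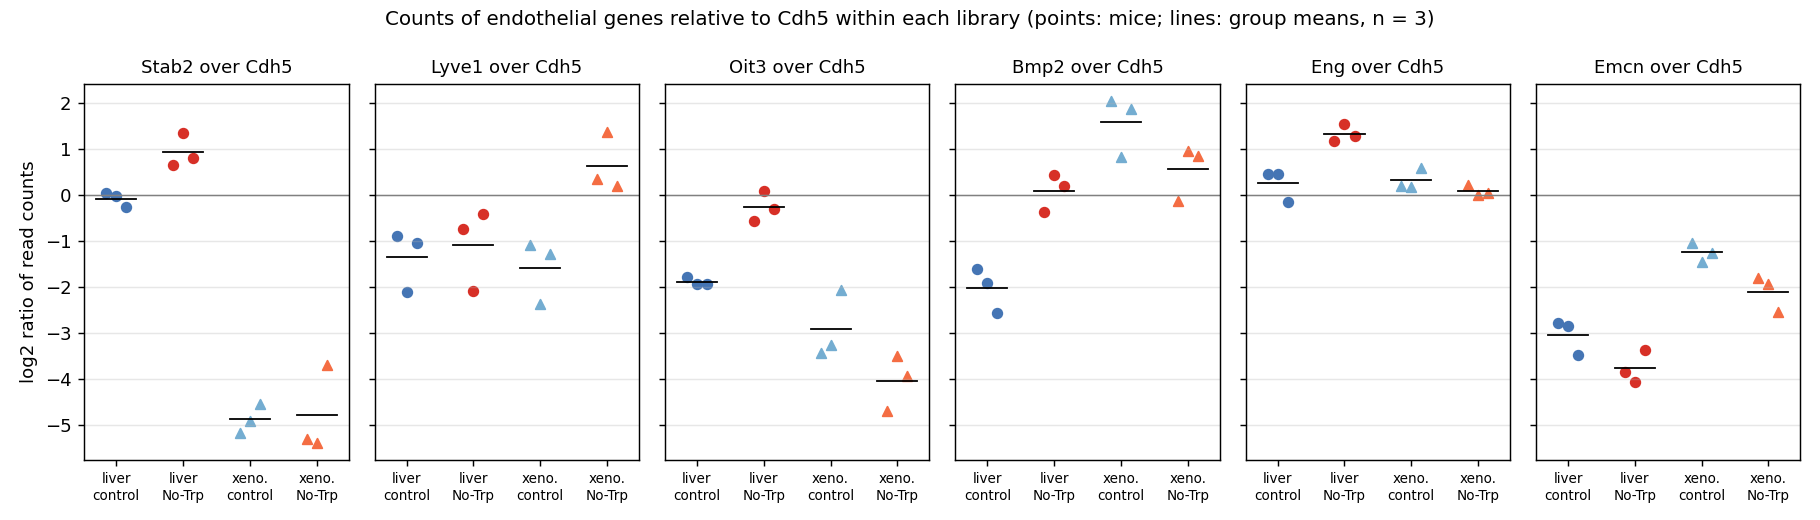
Log2 ratio of the counts of 6 members to those of Cdh5 within each library, by group (points, mice; lines, means of 3). The Stab2 ratio is far lower in every xenograft than in any liver, the Bmp2 and Oit3 ratios are higher in every No-Trp liver than in any control liver, and the Lyve1 ratio is higher in every No-Trp xenograft than in any control xenograft.

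The models were then set against each other on each diet. Stab2 was far lower in the xenografts than in the livers on both diets. With control diet its log2 difference was -5.39 (SE 0.56, adjusted p = 7.53e-06), and with No-Trp diet -5.37 (SE 0.54, adjusted p = 5.38e-06). Oit3 was lower too, at -1.66 (SE 0.30, adjusted p = 5.41e-04) and -3.72 (SE 0.33, adjusted p = 1.36e-06). On the control diet 2 members were called higher and 2 lower, where 23.3% and 20.2% of 15472 genes were called, and on the No-Trp diet 2 higher and 4 lower, where 24.5% and 19.1% were.

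Bmp2 was higher in control xenografts (3.14 (SE 0.41, adjusted p = 4.70e-05)) but not called between No-Trp groups (0.56 (SE 0.38, adjusted p = 0.224)). Emcn was called higher in xenografts in both comparisons, with 1.26 (SE 0.42, adjusted p = 0.0223) for the control diet and 1.83 (SE 0.44, adjusted p = 0.00328) for No-Trp. The first of these calls was lost without liver 101, liver 103 or xenograft 41 and with the resubmission covariate. Lyve1 gave -0.73 (SE 0.46, adjusted p = 0.196) on the control diet and 1.67 (SE 0.47, adjusted p = 0.00853) on the No-Trp diet, called only in the second. Kdr and Eng were called lower in xenografts on the No-Trp diet, with -1.52 (SE 0.43, adjusted p = 0.00942) and -1.10 (SE 0.34, adjusted p = 0.0143), whereas on the control diet they gave -0.67 and -0.55 without a call. Eng's call was lost without liver 107 or xenograft 36, at -0.98 (adjusted p = 0.0467) and -0.84 (adjusted p = 0.0535). Without control xenograft 41, 4 members were called lower on the control diet, Lyve1 and Tek joining, and 1 higher.

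Pecam1, Cdh5 and Tek were called in neither diet's comparison of models. Cdh5 differed by -0.58 between control groups and 0.11 between No-Trp groups (SE 0.36 and 0.36), and Pecam1 by 0.28 and 0.88 (SE 0.38 and 0.38). The 2 comparisons use different libraries but 1 shared fit. Over all genes the median log2 difference was 0.01 between control groups and 0.15 between No-Trp groups, where scaling by library totals moved it to 0.68. That scaling turned Eng and Kdr into genes not called and Pecam1 and Bmp2 into genes called higher. Pecam1 was also called on the No-Trp diet in 1 of 6 fits that left out 1 library.

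**Figure D5:**
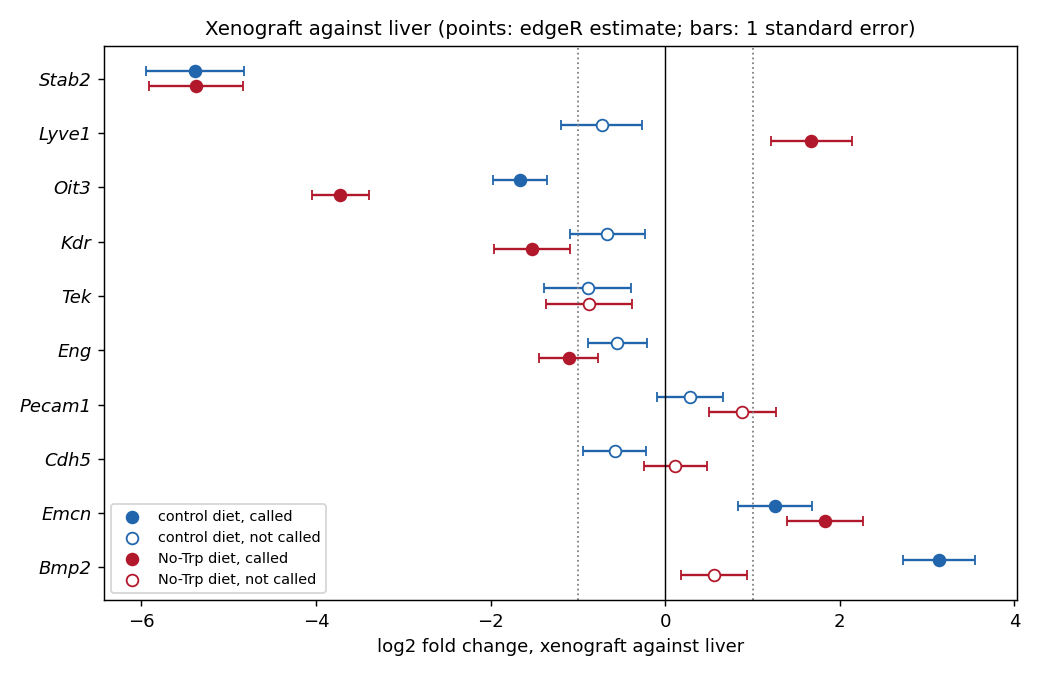
Log2 difference between xenografts and livers for each member, control diet in blue and No-Trp diet in red (points, edgeR estimates; bars, 1 standard error; filled, called; dotted lines, fold threshold). Stab2 lies at -5.39 and -5.37, while Lyve1 lies on opposite sides of 0 on the 2 diets.

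Further lists were compared between the models in the same fit. Of 15 further sinusoidal genes 3 were called higher and 9 lower in control xenografts, and 2 higher and 10 lower in No-Trp xenografts. Clec4g, a lectin of sinusoidal endothelium, differed by -5.09 on the control diet (adjusted p = 2.22e-05) and Gata4, a regulator of sinusoidal identity that hepatocytes also express, by -3.84 (2.98e-05). Fcgr2b, also made by macrophages and B cells, was higher (2.03, 8.12e-05). Of 10 angiogenic genes 6 were called higher and 1 lower in control xenografts, and 8 higher and 0 lower in No-Trp xenografts, with Unc5b at 2.32 and 3.19. Of 12 Kupffer cell and macrophage genes 5 were called lower and 1 higher on each diet. On the control diet Clec4f (-6.76, 6.98e-08) and Cd5l (-7.22, 6.78e-07) were lower, and Cd163 was higher on both diets, at 1.31 and 2.25 (adjusted p = 0.0122 and 4.12e-04). Hepatocyte genes, 13 of 13, were called lower on both diets. Pan-endothelial genes Flt1 (3.62), Ptprb (3.09) and Ecscr (2.73) were higher and Egfl7 (-1.12, adjusted p = 7.69e-04) lower in control xenografts. Of 27 such genes 4 were called higher and 3 lower, with a median log2 difference of -0.16. Over all genes 23.3% were called higher and 20.2% lower on the control diet, and 24.5% and 19.1% on the No-Trp diet.

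Within groups, members varied together across mice to differing degrees. After each group's mean was taken away, log2 CPM of Cdh5 and Pecam1 each correlated with the mean of the other 9 members at r = 0.92 over the 12 libraries, Tek at 0.90, Eng at 0.88, Kdr at 0.87, Emcn at 0.70, Bmp2 and Stab2 at 0.65, Oit3 at 0.41 and Lyve1 at 0.08. These libraries share depth and scaling, so the values are descriptions. Among the genes outside the set that followed its mean most closely, of 11659 with a mean count of at least 100, were Fhl1 (r = 0.97), Tie1 (0.97), Prelp (0.96), Eltd1 (0.96), Lrfn4 (0.96), Fgd5 (0.96), Grk5 (0.95), S1pr1 (0.95) and Mmrn2 (0.95). Of these, Tie1, Eltd1, S1pr1 and Mmrn2 were already on the lists of endothelial genes.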

How the data were processed

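Poly(A) RNA of 12 mouse samples (4 groups of 3) was sequenced. Per the study's methods and the submitters' processing notes, the authors trimmed reads with Trim Galore, aligned them to mm10 with STAR 2.7.2b and counted reads per gene with HTSeq. The deposited values are raw counts per gene symbol, and 5 summary lines per library were left out. Members and gene lists were chosen with earlier results of these data known. The named-gene rule took all 10 members and, for each other list and comparison, up to 4 called genes with the smallest adjusted p, or the 2 with the highest mean count where none was called. Esm1 and Bmp6 in livers and Cd163 in xenografts were named in addition, after their values were seen.

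Counts were fitted in edgeR 4.0.16 (R 4.3.3) with filterByExpr, TMM factors and the robust quasi-likelihood F-test, two-sided, over the 6 libraries of each model for diet and over all 12 libraries for models and their interaction. SE is the size of the log2 fold change divided by the square root of F. Exon lengths and positions came from GENCODE M21 on GRCm38. Alternatives were DESeq2 1.42.0 (the authors' tool), other scalings and filters, the mark of resubmission as a covariate, and leaving out each library. On simulated counts with log2 changes of 2, the scripts recovered 99.0% of 200 changed genes for the liver diet comparison (14122 genes), 97.5% for the xenograft diet (14704 genes) and 60.5% for the interaction (15472 genes). The simulation was to recover over 85%, which the interaction missed, so it was run again there with changes of 3, of which 99.0% were recovered. The analysis itself was not altered. The simulation gave every gene the same spread and changed only genes above a minimum mean count. Recovery for genes with few reads, or with a wider spread between these mice, was not tested. Library depth was 14660963 to 26085349 reads on genes. The p-values set group differences against the spread between these mice and treat the mice as independent. Nothing states that mice of a group came from separate litters or cages, so that independence is not established. A gene whose pattern was like that of the members is not reported here.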

Additional observations from a re-analysis of the deposited data

Results flagged for a closer look

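For 3 genes the diet change differed between the models by edgeR's interaction term, computed over all 12 libraries with Benjamini-Hochberg adjustment. Bmp2 changed by 2.07 in livers and -0.54 in xenografts, a difference of -2.58 (SE 0.55, adjusted p = 0.0138), and all 3 No-Trp livers lay above all 3 control livers. Oit3 changed by 1.58 and -0.51, a difference of -2.06 (SE 0.42, adjusted p = 0.0122), with every No-Trp value above the controls in livers and below them in xenografts. Lyve1 changed by 0.28 and 2.65, a difference of 2.40 (SE 0.66, adjusted p = 0.0322). It was not called without liver 103 or 107 or without xenograft 35, 36, 40 or 43, where its adjusted p ranged up to 0.0847.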

How the results depend on the processing

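No paired analysis was possible because the labels give each mouse its own number and no number is shared between groups. Without the threshold on the fold change, 3570 genes were called in livers, and with resubmission as a covariate 5 members were called higher there. DESeq2 called 4 members higher in livers, Kdr joining, and library totals 2, Tek (0.84, adjusted p = 0.0975) being lost. In xenografts, where 53 genes were called, DESeq2 called 380, RLE factors 82, no filter on low counts 118, a minimum of 10 counts in every library 15, the resubmission covariate 4 and a single fit of all libraries 23, and 1 member was called higher by DESeq2, RLE factors and library totals. Between models, the resubmission covariate left 1 member called higher on the control diet, and library totals gave 4 higher and 2 lower for No-Trp.

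Leaving out each library in turn gave 8 to 3207 called genes and 0 to 5 members higher in livers, and 9 to 78 genes and 0 to 1 members higher in xenografts. The control diet comparison of models gave 1 to 2 members higher and 2 to 4 lower over 6361 to 6659 genes. The No-Trp one gave 2 to 3 members higher and 3 to 4 lower over 6338 to 6659 genes, and the interaction 0 to 1 higher and 2 lower over 916 to 2571 genes.

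Library totals moved the liver median of all genes to -0.30 and the split of calls from 1311 higher and 1026 lower to 732 and 1532, in xenografts from 36 and 17 to 60 and 11, between models on No-Trp from 3796 and 2959 to 5797 and 2024, and in the interaction from 1036 and 930 to 1825 and 437. Signs turned for values that were not called. Pecam1 in livers was -0.17 with totals. With the resubmission covariate Emcn was 0.60 and Bmp2 0.079 in xenografts and Stab2 -0.37 in the interaction. Cdh5 was -0.00099 between models on No-Trp with RLE factors. The interaction of Stab2 was -0.069 with DESeq2 and -0.087 with RLE factors, and that of Tek -0.089 and -0.092. Leaving out single libraries, ranges across 0 were -0.034 to 0.69 for Lyve1, -0.050 to 0.31 for Pecam1 and -0.37 to 0.070 for Cdh5 in livers, -0.69 to 0.13 for Emcn and -0.78 to 0.092 for Bmp2 in xenografts, -0.057 to 0.57 for Pecam1 and -0.11 to 0.35 for Cdh5 between models on control and No-Trp diet, and -0.81 to 0.42 for Stab2 and -0.37 to 0.79 for Tek in the interaction. The cause was not tested.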
